A study of Mus musculus with 69 samples.

Results

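The lungs of mice given the highest dose of the nano-TiO2 material NRCWE-030 were compared with those of vehicle controls 1 day after exposure. The members were the 5 arrays titled for NRCWE-030 at 162 µg on day 1 and the 5 day 1 control arrays, 10 of the 69 arrays of the series, and the comparison was described across all 18739 genes tested. All animals were female C57BL/6 mice, 5 to 7 weeks old on arrival and acclimatised for 1 to 3 weeks. The exposed mice received 162 µg of NRCWE-030 in a vehicle of water with 2% serum by a single intratracheal instillation, the controls received this vehicle alone, and lungs were taken 24 h later. RNA came from a small frozen piece of lung, with 1 mouse per array. It carried Cy5, the shared reference (Universal Mouse Reference RNA) carried Cy3, and dyes were not swapped. Each value is therefore the log2 ratio of lung to reference signal, here called a level, and a difference of 1 log2 unit between groups is a 2-fold change. The comparison groups used further on were NRCWE-030 at 18 and 54 µg on day 1, NRCWE-025, the other nano-TiO2 material, at 162 µg on day 1, and NRCWE-030 at 162 µg with its own controls on day 28, each with 5 mice of the same kind. The 5 day 1 controls served every day 1 dose of both materials, so comparisons with control share these mice.

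Particles that reach the alveoli are taken up by resident macrophages, and lung cells respond with cytokines and chemokines that draw neutrophils and monocytes from the blood. The same signals, above all interleukin-1 and interleukin-6, induce acute phase proteins, which are best known from the liver but are also made in the lung. Interferons induce a separate group of genes with antiviral and immune functions.

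The 10 arrays were of like quality, but some stood apart. Between 54.17% and 65.4% of spots were well above background in Cy5, no spot was saturated, and the arrays of a group correlated with each other at a median r of 0.941 to 0.969 over genes. Heart muscle markers were high on 4 arrays, those of exposed mice 1 and 3 and control mice 1 and 2 (means of 2.74, 2.58, 1.84 and 4.13 over 17 genes, against -0.01 to 0.41 in the other 6), so counts are also given without these 4. Control mouse 3 had clock genes at the level of the exposed mice, described below. The controls were scanned on scan days 1, 3, 4, 5 and 10 and the exposed mice on days 5, 9, 10, 10 and 11, so time of scanning and exposure were partly confounded.

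Against control, 326 of 18739 genes were called at an adjusted p under 0.05 (1.74%). Of these, 234 were higher (1.25%) and 92 were lower (0.491%) in the exposed mice. Below, a gene said to have risen or fallen was called in that direction. Without adjustment, 2416 of the 18739 genes had a limma p under 0.05, 1340 higher and 1076 lower. The counts of called and unadjusted genes in the gene lists below stand against these shares over all genes. The increases were the larger changes: 52 of the higher genes differed by more than 1 log2 unit and 13 by more than 2, while 14 of the lower genes differed by more than 1 and 0 by more than 2. In 282 of the 326 called genes, every exposed mouse lay beyond every control mouse. Over all genes tested, called or not, 544 were higher and 310 lower without overlap. The median difference over all genes was 0.0044. Without the 4 arrays high in heart muscle markers, 14 genes were called, all 14 among the 326. These were 11 higher genes (Saa3, Saa1, Orm2, Saa2, Lcn2, Orm1, Wfdc17, Rgs16, Efr3b, Cstb and Donson) and 3 lower genes (Asgr1, Itih5 and Rftn2). Of the gene lists described here, the acute phase proteins alone held a called gene without these 4 arrays. With scan day as a block, 49 genes were called, 36 of them among the 326, and with 1 array left out the count was 154 (without exposed mouse 2) to 282. Control mice 1 and 3 were the only mice of this fit on scan days 1 and 4, so the block takes them out of the comparison. Leaving out arrays also lowers the number of mice compared. The part of this loss of precision in the lower counts was not tested.

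**Figure D1:**
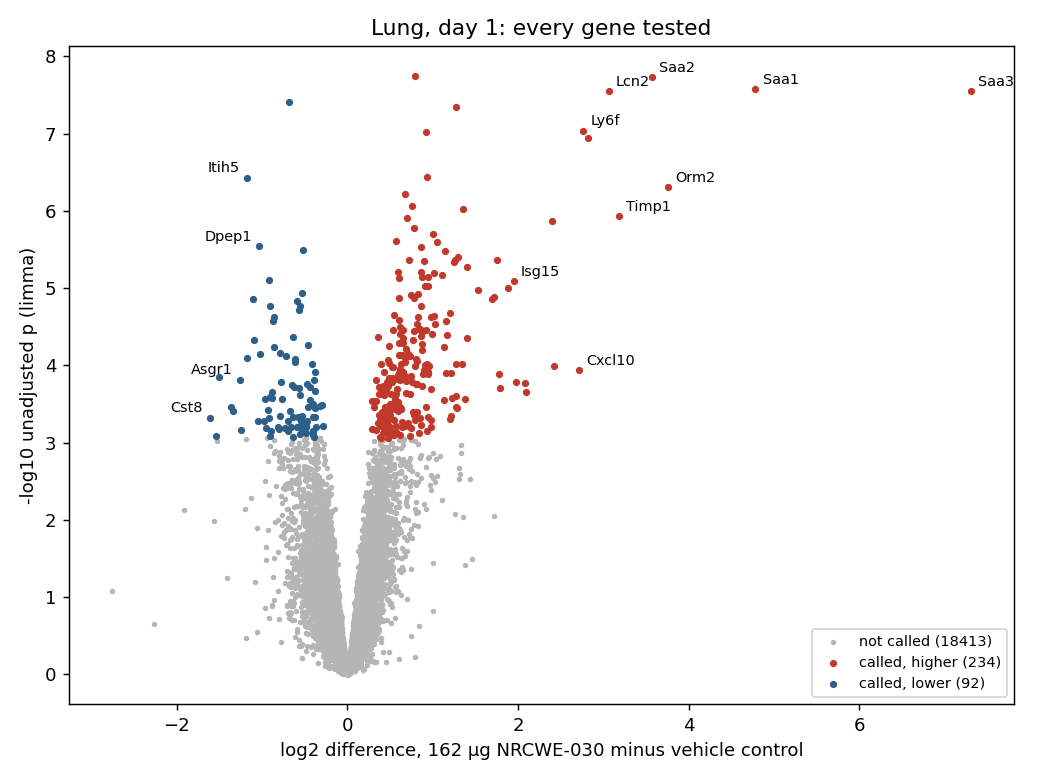
Each point is 1 of the 18739 genes. The horizontal axis is the log2 difference between 162 µg of NRCWE-030 and control on day 1 and the vertical axis is -log10 of limma's unadjusted p. The 234 called higher genes reach 7.31 log2 units (Saa3), and the 92 called lower genes reach -1.61 (Cst8).

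Acute phase proteins held the largest changes of the comparison. Of 24 genes measured, 9 were called higher and 0 lower, with a median difference of 0.51. Of the list, 6 were called without the 4 arrays high in heart muscle markers, and 6 with scan day as a block. Saa3, Saa1 and Saa2 encode serum amyloid A proteins, which bind lipoproteins and attract leukocytes. Saa3 had levels of 5.47, 5.34, 4.63, 3.97 and 4.07 in the exposed mice and of -2.68, -1.91, -2.55, -3.25 and -2.69 in the controls. Every exposed mouse was far above every control, and the rise was 7.31 ± 0.82 (SE, n = 5 per group; adjusted p = 0.000106), which is 159-fold. Within the slides that held both groups, the exposed mouse was higher by 8.71 and by 7.32. Saa1 stood at 5.13, 5.24, 4.36, 4.31 and 4.05 against -0.28, 0.13, -0.07, -0.52 and -0.09, a rise of 4.78 ± 0.53 (adjusted p = 0.000106). Saa2 rose by 3.57 ± 0.39. Saa1 and Saa2 are nearly identical in sequence, so their probes may share signal. The 2 probes of Saa1 rose by 4.43 and 5.13.

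Lcn2 encodes lipocalin-2, which withholds iron from bacteria by binding their siderophores. Its levels were 5.39, 5.12, 4.74, 4.40 and 4.53 in the exposed mice and 1.57, 2.17, 2.07, 1.79 and 1.25 in the controls, without overlap, and the rise of 3.07 ± 0.34 corresponded to 8.37-fold. Orm2 and Orm1 encode the plasma carrier orosomucoid and rose by 3.76 ± 0.51 and 2.82 ± 0.35 (adjusted p = 0.000713 and 0.000216). Of the 5 controls, 1 gave a signal well above background for each, and they resemble each other in sequence, so their folds are uncertain. Hpx, the haem carrier hemopexin, rose by 1.97 ± 0.42, Serpina3n, a serine protease inhibitor, by 1.16 ± 0.24, and Steap4, a metalloreductase, by 0.53 ± 0.11, the median of probes at 0.88 and 0.18. In contrast, Hp (haptoglobin), which is also abundant in airway cells, differed by -0.08 and Lbp, which binds lipopolysaccharide, by 0.30, and neither was called. Cp (ceruloplasmin) differed by 1.43 and was not called (adjusted p = 0.096). The mean over the 24 genes was 1.68 to 2.28 in the exposed mice and 0.37 to 0.86 in the controls.

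Stretches of the promoters of 5 of these genes are shown because the members that rose most held a short pattern there. Factors of the C/EBP family, which act downstream of interleukin-1 and interleukin-6, bind sequences of the form TTGCNNAA. The pattern, read on both strands in the window from 250 bases before to 50 bases after the annotated start, was present in 7 of the 8 called acute phase genes with a window and in 13 of 20 on the whole list. Over all 14901 genes with a window, 11.3% held it, over the called higher genes 35 of 183 (19.1%) and over the called lower genes 10 of 70 (14.3%). The sequences are from RefSeq (GRCm38.p6), read 5′ to 3′ on the strand of the gene, and capitals mark the matches to TTGCNNAA on either strand and, in Saa3, a pair of GAAA 2 bases apart. Other patterns searched in the same way were TTGCNCAA (held by 3.22% of all windows and 9.29% of those of called higher genes), TTATGNAA (3.53% and 6.01%), TTCNNNGAA (9% and 14.8%), an NF-kB pattern of GGGA and TTTCC with 1 base between (0.523% and 2.19%) and CACGTG (9.86% and 9.84%), of which the former 2 overlap TTGCNNAA. A match describes the letters only. The stretches lie at chr7:46715753-46715816 (minus strand, Saa3), chr7:46743140-46743177 (minus, Saa1), chr7:46751635-46751672 (plus, Saa2), chr4:63362314-63362351 (plus, Orm2) and chr2:32387933-32387970 (minus, Lcn2).
Saa3: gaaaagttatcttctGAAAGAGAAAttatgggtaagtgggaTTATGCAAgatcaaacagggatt
Saa1: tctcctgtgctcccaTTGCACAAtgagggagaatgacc
Saa2: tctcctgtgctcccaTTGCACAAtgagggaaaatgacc
Orm2: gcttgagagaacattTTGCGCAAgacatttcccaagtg
Lcn2: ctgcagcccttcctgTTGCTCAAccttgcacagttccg

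**Figure D2:**
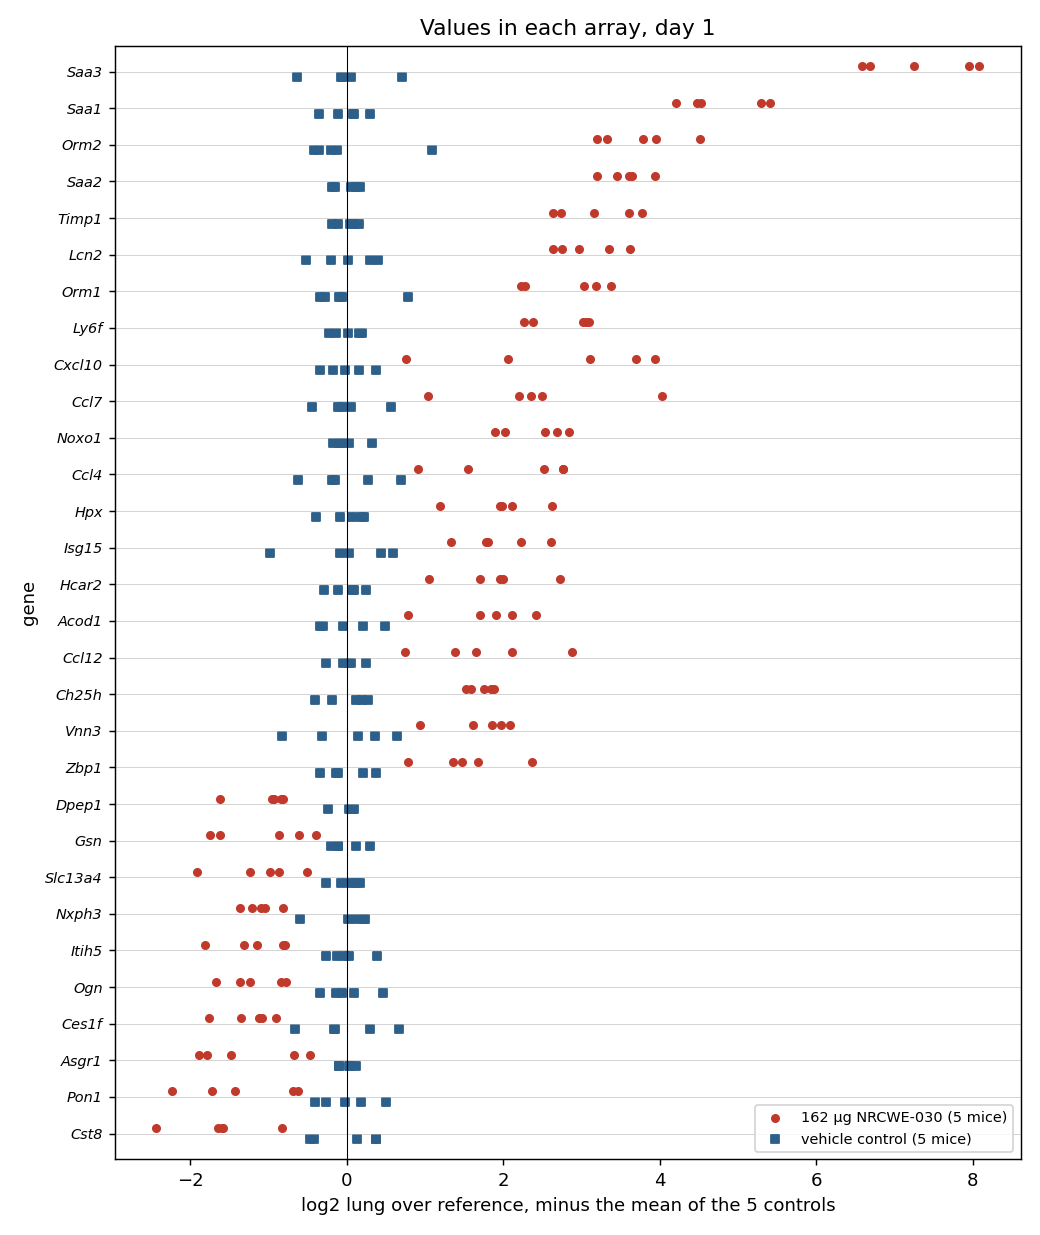
Values of the 20 called genes with the largest increase and the 10 with the largest decrease, limited to genes whose groups did not overlap. The horizontal axis is the log2 level minus the mean of the 5 controls, circles are the 5 exposed mice and squares the 5 controls. Saa3 lies farthest to the right, and the exposed mice spread most in Cxcl10 and Ccl7.

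CC chemokines, which attract monocytes and other leukocytes, had the highest median of the gene lists, 1.30. Of 15 measured, 8 were called higher and 0 lower. Ccl7, a ligand of Ccr2 and other receptors, had levels of 1.02, -0.52, -0.66, -1.97 and -0.82 in the exposed mice and of -2.44, -3.08, -3.13, -3.46 and -2.96 in the controls. The groups did not overlap, and the rise was 2.43 ± 0.50 (adjusted p = 0.0153). Ccl2, the other main ligand of Ccr2, rose by 2.09 ± 0.45, but exposed mouse 4 (-3.30) overlapped the controls (-4.41 to -3.29). Ccl12, a further ligand of that receptor, rose by 1.76 ± 0.28 without overlap. Ccl4 and Ccl3, macrophage inflammatory proteins, rose by 2.10 ± 0.46 and 1.28 ± 0.30. Ccl9 rose by 1.40 ± 0.23, Ccl17, which attracts T cells through Ccr4, by 1.38 ± 0.31, and Ccl19, which guides cells through Ccr7, by 0.93 ± 0.21. Ccl5 differed by -0.23 and Ccl22 was not well above background on any of the 10 arrays. Exposed mouse 1 was highest and mouse 4 lowest in Ccl7, Ccl2 and Ccl12. No CC chemokine was called with scan day as a block or without the 4 arrays high in heart muscle markers, with list medians of 1.25 and 1.40.

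Of 16 CXC and other chemokines, 3 rose, and they were Cxcl10, Cxcl9 and Cxcl3. Cxcl10 and Cxcl9 are induced by interferons and attract T cells through Cxcr3. Cxcl10 stood at 2.61, 2.37, 1.78, -0.57 and 0.73 in the exposed mice and at -0.95, -1.67, -1.17, -1.35 and -1.51 in the controls, a rise of 2.71 ± 0.56 (adjusted p = 0.0167). Exposed mouse 4 again was nearest to the controls. Cxcl9 rose by 0.99 ± 0.19. Cxcl3, which attracts neutrophils through Cxcr2, was not well above background on any control array and rose at least 1.49-fold (adjusted p = 0.0308). This bound sets the exposed mean against the higher of each control's value and its lowest signal well above background. The other neutrophil attractants Cxcl5 and Cxcl1 differed by 1.38 ± 0.62 and 1.01 ± 0.45 and were not called (adjusted p = 0.343 and 0.335).

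Among cytokines, 4 of 21 genes of the interleukin-1, interleukin-6 and tumour necrosis factor families rose. Il1b, the main secreted interleukin-1, had levels of 3.78, 3.53, 3.31, 2.67 and 2.61 in the exposed mice and of 2.28, 1.90, 1.57, 1.93 and 1.84 in the controls, which did not overlap (adjusted p = 0.0151). Il1r2, a decoy receptor of neutrophils and macrophages, rose by 1.36 ± 0.19. Il1rn, the receptor antagonist, rose by 0.92, but its 2 probes disagreed: 1 was well above background on all 10 arrays and rose by 1.77, the other was so on 0 and differed by 0.06. Il6, which signals through STAT3, was also not well above background on any control array and rose at least 2.08-fold (adjusted p = 0.0366). Of 8 colony-stimulating factor genes, Csf3r (1.25 ± 0.20), Csf2rb2 (1.00) and Csf1 (0.47) rose. None of 12 T helper cytokine genes was called by limma (0 at an unadjusted p under 0.05), with differences between -0.14 and 0.09. Nfkbiz (0.65) and Cebpb (0.55) rose among 19 targets and feedback genes of STAT3 and NF-kB, and none of 17 immediate early genes was called (3 unadjusted).

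Receptors of myeloid cells were also among the called genes. In bulk tissue, more cells of a type and more RNA per cell cannot be told apart, nor can fewer cells and less RNA per cell. Of 26 pattern recognition and scavenger receptors, 8 rose. They included the C-type lectins Clec4d (1.30 ± 0.20), Clec4n (1.21 ± 0.22), Clec4a2 (0.74) and Clec5a (0.45), the scavenger receptor Msr1 (0.98 ± 0.18), Trem2 (0.65), Trem1 (0.60) and the adaptor Myd88 (0.42). The probes of Clec5a and of Clec4a2 disagreed, with 1 of 3 probes of each rising. Of 11 Fc receptors and leukocyte integrins, 5 rose: Fcgr1 (0.95), Fcgr2b (0.84), Fcgr3 (0.74), Fcer1g (0.64) and Itgam (0.46). Complement gave 3 called genes of 18, C1ra (0.60), C3ar1 (0.37, with probes at 0.61 and 0.14) and Cfb, the convertase subunit of the alternative pathway. Cfd, also counted among the fat markers, differed by -2.76 and was not called. Cfb had the largest change of the 3, with 5.28, 4.84, 4.70, 4.63 and 4.31 against 2.35, 3.42, 3.76, 3.99 and 3.88. Control mouse 1 was lowest for Cfb, and the groups did not overlap (1.27 ± 0.28; adjusted p = 0.0241). With scan day as a block, 0 genes of these 3 lists were called.

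Some markers of single types of leukocyte were called. Of 19 neutrophil markers, Il1r2, Csf3r and Trem1 rose and the median was 0.05, with 5 higher and 1 lower at an unadjusted p under 0.05. Granule and calprotectin genes of neutrophils were not called, with differences of 0.30 for S100a8, -0.20 for S100a9 and 0.07 for Mpo. Of 15 monocyte and interstitial macrophage markers, Ms4a6d (1.02), Aif1 (1.01) and Plac8 (0.93) rose, with 7 higher and 0 lower unadjusted. Of 11 alveolar macrophage markers, Cidec fell by 1.36, and it is a lipid droplet gene also counted among the fat markers. Ear1, an eosinophil-associated ribonuclease of these macrophages, had levels of 2.40 to 4.85 against 4.60 to 5.43 and was not called (adjusted p = 0.0517). Chil3 differed by -1.06 and Marco by 0.40. The median over the alveolar macrophage markers was -0.49, with 0 higher and 5 lower unadjusted.

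Among macrophage activation and lysosome genes, 3 of 23 rose. Acod1 makes itaconate and had levels of -1.66, -1.86, -1.35, -2.98 and -2.07 against -3.28, -3.81, -4.07, -4.11 and -3.55 (1.78 ± 0.37; adjusted p = 0.0174). Ch25h makes the antiviral oxysterol 25-hydroxycholesterol and was tightly grouped, at 3.53 to 3.89 in the exposed mice and 1.60 to 2.27 in the controls, a rise of 1.72 ± 0.30. Slc11a1, a metal transporter of the phagosome, rose by 0.55. Cholesterol synthesis and efflux, of which Ch25h is also a member, held no other called gene among 19. Of 11 genes of alternative activation, Ccl17 alone was called.

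Interferon-stimulated genes were the list with the most called members. Of 26 measured, 11 were called higher and 0 lower. All 26 differences were above 0, 24 of them at an unadjusted p under 0.05, with a median of 0.74. Isg15, a ubiquitin-like protein, had levels of 1.34, 0.52, 0.97, 0.06 and 0.55 in the exposed mice and of -2.24, -0.83, -1.35, -1.23 and -0.68 in the controls. The groups did not overlap, and the rise was 1.95 ± 0.32 (adjusted p = 0.00356). Zbp1, a sensor of Z-form nucleic acids, stood at 2.20, 1.19, 1.52, 0.62 and 1.31 against -0.30, 0.21, -0.50, -0.27 and 0.04 and rose by 1.53 ± 0.26. Oasl2, of the oligoadenylate synthetase family, rose by 1.26 ± 0.20, the transcription factor Irf7 by 0.98 ± 0.23 and the Isg15 protease Usp18 by 0.88 ± 0.19. Irgm1 (0.81), Ifit3 (0.78), Gbp3 (0.62) and Ifit2 (0.61) also rose, with Cxcl10 and Cxcl9 the remaining called members. The mean over the 26 genes was 0.59 to 1.32 in the exposed mice and -0.02 to 0.25 in the controls. Within the slides that held both groups, Isg15 was higher in the exposed mouse by 2.57 and 1.64. None of the 26 was called with scan day or slide as a fixed block or without the 4 arrays high in heart muscle markers, although the list median was 0.58 with scan day as a block and 0.56 without the 4 arrays.

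Promoter stretches of 3 genes of this group are shown for the interferon-stimulated response element, searched here as the letters GAAA repeated after any 2 bases, on both strands. Of the 22 genes on the list with a window, 13 held the pattern, 5 of the 9 called ones among them, against 3.83% of all 14901 windows. Among the called higher genes of every kind it was present in 21 of 183 (11.5%), and among the called lower genes in 5 of 70 (7.14%). The same pattern followed by a C was also searched and was held by 0.953% of all windows and 7.1% of those of called higher genes. Capitals mark the matches, overlapping ones as a single run. The stretches lie at chr4:156200860-156200911 (minus strand, Isg15), chr5:92349078-92349117 (minus, Cxcl10) and chr19:34583358-34583431 (plus, Ifit3) in GRCm38.p6.
Isg15: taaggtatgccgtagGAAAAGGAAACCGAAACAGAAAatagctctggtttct
Cxcl10: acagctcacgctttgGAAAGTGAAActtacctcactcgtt
Ifit3: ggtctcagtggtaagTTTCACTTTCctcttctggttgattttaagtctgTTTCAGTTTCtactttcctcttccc

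**Figure D3:**
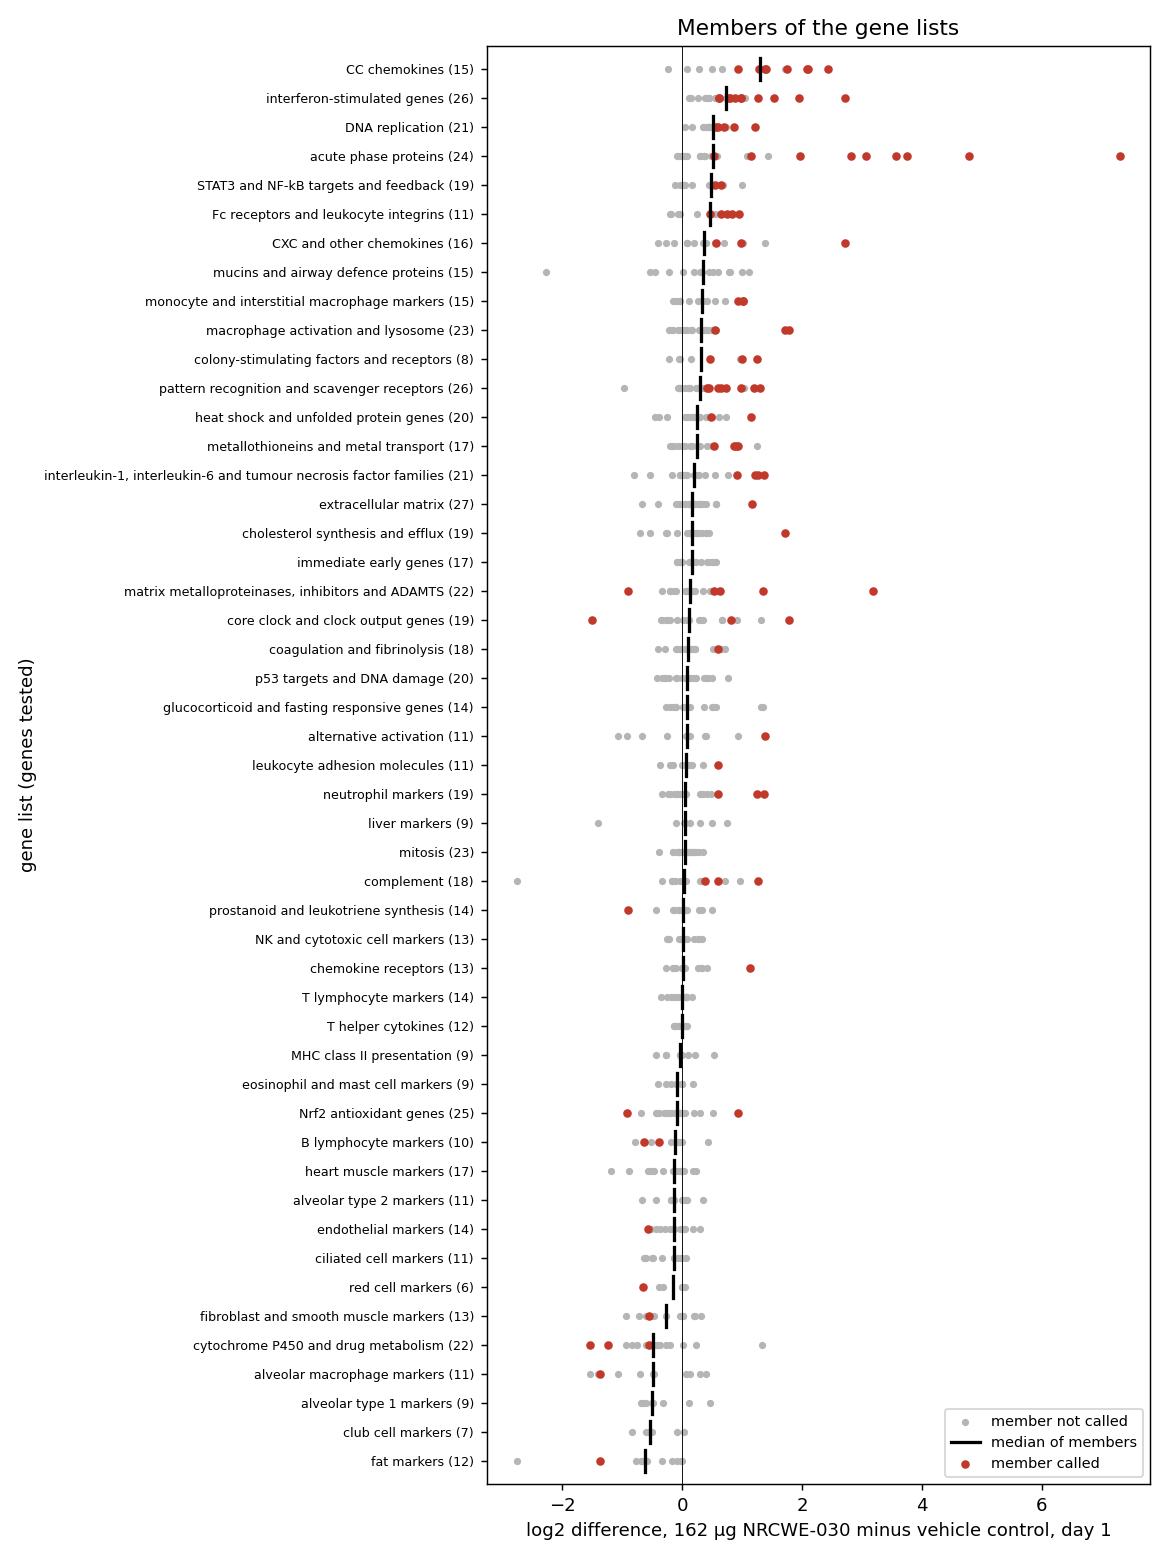
Members of the 49 gene lists on the horizontal axis by their log2 difference between 162 µg of NRCWE-030 and control on day 1. Red points are called members, grey points are not called and the black bar is the median of the list. CC chemokines (1.30) and interferon-stimulated genes (0.74) have the highest medians.

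Of 21 DNA replication genes, 5 were called higher. All 21 differences were above 0, 16 of them at an unadjusted p under 0.05, with a median of 0.51. Those that rose were Uhrf1, which maintains DNA methylation (1.22), the helicase subunits Mcm6 (0.86 ± 0.15) and Mcm3 (0.69), the sliding clamp Pcna (0.60 ± 0.12) and the licensing factor Cdt1 (0.57). Mcm6 had levels of -1.35, -1.66, -1.51, -1.52 and -1.42 in the exposed mice and of -2.14, -2.34, -2.60, -2.49 and -2.20 in the controls, without overlap. None of 23 mitosis genes was called by limma (0 unadjusted), and their median was 0.04. No replication gene was called with scan day or slide as a fixed block or without the 4 arrays high in heart muscle markers. None of 20 p53 target and DNA damage genes was called (6 unadjusted, 4 higher and 2 lower, against 2416 of all 18739 genes).

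Among genes of tissue remodelling, 22 were matrix metalloproteinases, their inhibitors and ADAMTS proteases. Of these, 4 were called higher and 1 lower, and 8 had an unadjusted p under 0.05. None of the 22 was called with scan day as a block or without the 4 arrays high in heart muscle markers. Timp1, an inhibitor of matrix metalloproteinases, stood at 1.53, 1.37, 0.92, 0.40 and 0.50 in the exposed mice and at -2.15, -2.08, -2.35, -2.42 and -2.19 in the controls. The controls were tightly grouped and far below the exposed mice, and the rise was 3.18 ± 0.46 (adjusted p = 0.00128). Its 2 probes rose by 2.42 and 3.95. Timp1 was not called by limma with scan day as a block (adjusted p = 0.0702) or without the 4 arrays high in heart muscle markers (adjusted p = 0.084), with differences of 3.27 and 3.08. Mmp3 (stromelysin-1, 1.34 ± 0.27), Mmp19 (0.64) and the protease Adamts9 (0.53) also rose among 22 genes of this list, and Timp2 fell by 0.90 ± 0.23. One of the 2 probes of Adamts9 was not well above background on any of the 10 arrays and differed by 0.13, against 0.94 for the other. Of 27 extracellular matrix genes, 1 was called, Tgfbi (1.16 ± 0.22), although 22 differences were above 0.

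Genes of metal handling were mostly above control, with 13 of 17 differences above 0 and a median of 0.24. At an unadjusted p under 0.05, 8 were higher and 0 lower. With scan day as a block 1 of them was called, and 0 without the 4 arrays high in heart muscle markers. Of 17 metal genes, 4 rose: Hmox1, which degrades haem (0.94 ± 0.23), the transferrin receptor Tfrc (0.90 ± 0.14), the ferritin heavy chain Fth1 (0.87 ± 0.16) and Steap4. The metallothionein Mt2 differed by 1.26 ± 0.43 and was not called (adjusted p = 0.161). Of 25 Nrf2 antioxidant genes, Hmox1 was the only one called higher, and 6 differences were above 0. Gstm1, a glutathione transferase with close paralogs, fell by 0.92, and the list median was -0.09. Noxo1, the organiser subunit of a NADPH oxidase of epithelia, stood at 2.67, 2.51, 2.82, 1.88 and 2.01 against -0.20, 0.31, -0.09, -0.12 and 0.01, a rise of 2.40 ± 0.35 (adjusted p = 0.00135). Sdf2l1, of the endoplasmic reticulum, rose by 1.14 ± 0.18 and the cold-inducible Rbm3 by 0.48, the called genes of 20 for heat shock and unfolded proteins. The 2 probes of Rbm3 disagreed, at 1.00 and -0.04.

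Other genes among the 20 largest increases were Ly6f, Hcar2 and Vnn3. Ly6f, a member of the Ly6 family of surface proteins, had levels of 3.20, 3.24, 3.17, 2.52 and 2.41 in the exposed mice and of -0.09, 0.16, 0.30, 0.00 and 0.34 in the controls. No exposed mouse came near the controls, and the rise was 2.77 ± 0.33 (adjusted p = 0.000197). Hcar2, a receptor for hydroxybutyrate and nicotinic acid, rose by 1.89 ± 0.32, and Vnn3, of the vanin family of pantetheinases, by 1.70 ± 0.29.

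The genes that fell most came from several groups. Cst8, of the cystatin family, had the largest decrease, with levels of 1.82, 2.60, 2.66, 3.42 and 2.67 in the exposed mice against 3.78, 4.38, 4.62, 4.62 and 3.84 in the controls (fell by 1.61 ± 0.38; adjusted p = 0.0361). Asgr1, a subunit of the asialoglycoprotein receptor, stood at -0.04, -1.15, 0.16, -0.85 and -1.25 against 0.75, 0.68, 0.54, 0.66 and 0.54, and it fell by 1.26 ± 0.27. Itih5, which belongs to a family of proteins that bind hyaluronan, stood at 1.36, 0.85, 1.39, 1.02 and 0.37 against 2.05, 2.56, 2.20, 2.15 and 1.91. It fell by 1.17 ± 0.16 and had the smallest adjusted p of these 10 genes (0.000582). For both Asgr1 and Itih5 the exposed mice high in heart muscle markers, 1 and 3, were the nearest to the controls. Slc13a4, a sulphate transporter, fell by 1.10 ± 0.21 and Dpep1, a dipeptidase of leukotriene and glutathione metabolism, by 1.03 ± 0.16. Pon1 (paraoxonase-1) fell by 1.34 ± 0.31, Ogn, a small leucine-rich matrix proteoglycan, by 1.18 ± 0.24, Nxph3 (neurexophilin-3) by 1.10 ± 0.19 and the actin-severing protein Gsn by 1.04 ± 0.25. Ces1f, a carboxylesterase with close paralogs, fell by 1.24 ± 0.31. With 1 array left out, Cst8 was not called in 7 of the 10 fits, Pon1 in 7, Ces1f in 9 and Gsn in 8. Cst8 was also not called by limma with the series matrix values (adjusted p = 0.134), without background correction (adjusted p = 0.116) or with the scanner log ratio (-0.95, adjusted p = 0.583). Aox1, an aldehyde oxidase, fell by 0.55. Of 22 genes of cytochrome P450 and drug metabolism, which include Ces1f and Aox1, 3 were called lower and 0 higher. Their median was -0.49, with 14 lower and 1 higher at an unadjusted p under 0.05. None of the 22 was called with scan day as a block or without the 4 arrays high in heart muscle markers.

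Epithelial and other structural markers were mostly below control without being called. The 9 alveolar type 1 markers had a median of -0.51, and their mean was 3.13 to 3.53 in the exposed mice against 3.64 to 3.91 in the controls, with no gene called by limma and 7 at an unadjusted p under 0.05, 6 of them lower. The medians were -0.53 over 7 club cell markers, -0.14 over 11 ciliated cell markers and -0.14 over 11 alveolar type 2 markers, with 0 called in each (3, 1 and 1 unadjusted). In the same tissue, Ednrb among 14 endothelial markers fell by 0.58, Pdgfra among 13 fibroblast and smooth muscle markers by 0.55, Fcmr and Cd22 among 10 B lymphocyte markers by 0.63 and 0.39, and Hba-a1 among 6 red cell markers by 0.65. The 2 probes of Ednrb disagreed, at -1.02 and -0.13. None of 14 T lymphocyte, 13 NK and cytotoxic, 17 heart muscle and 9 liver markers was called by limma (0 unadjusted in each), nor any of 9 eosinophil and mast cell markers, 9 MHC class II genes, 15 mucins and airway defence proteins and 14 glucocorticoid and fasting responsive genes (3, 2, 3 and 3 unadjusted). Ltc4s, which makes leukotriene C4, fell by 0.90 among 14 genes of prostanoid and leukotriene synthesis, and Vcam1 rose by 0.59 among 11 leukocyte adhesion molecules. Fat markers had a median of -0.62 over 12 genes, with means of 0.68 to 1.99 in the exposed mice and 1.24 to 3.39 in the controls. Their part in the lower genes was not tested.

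**Figure D4:**
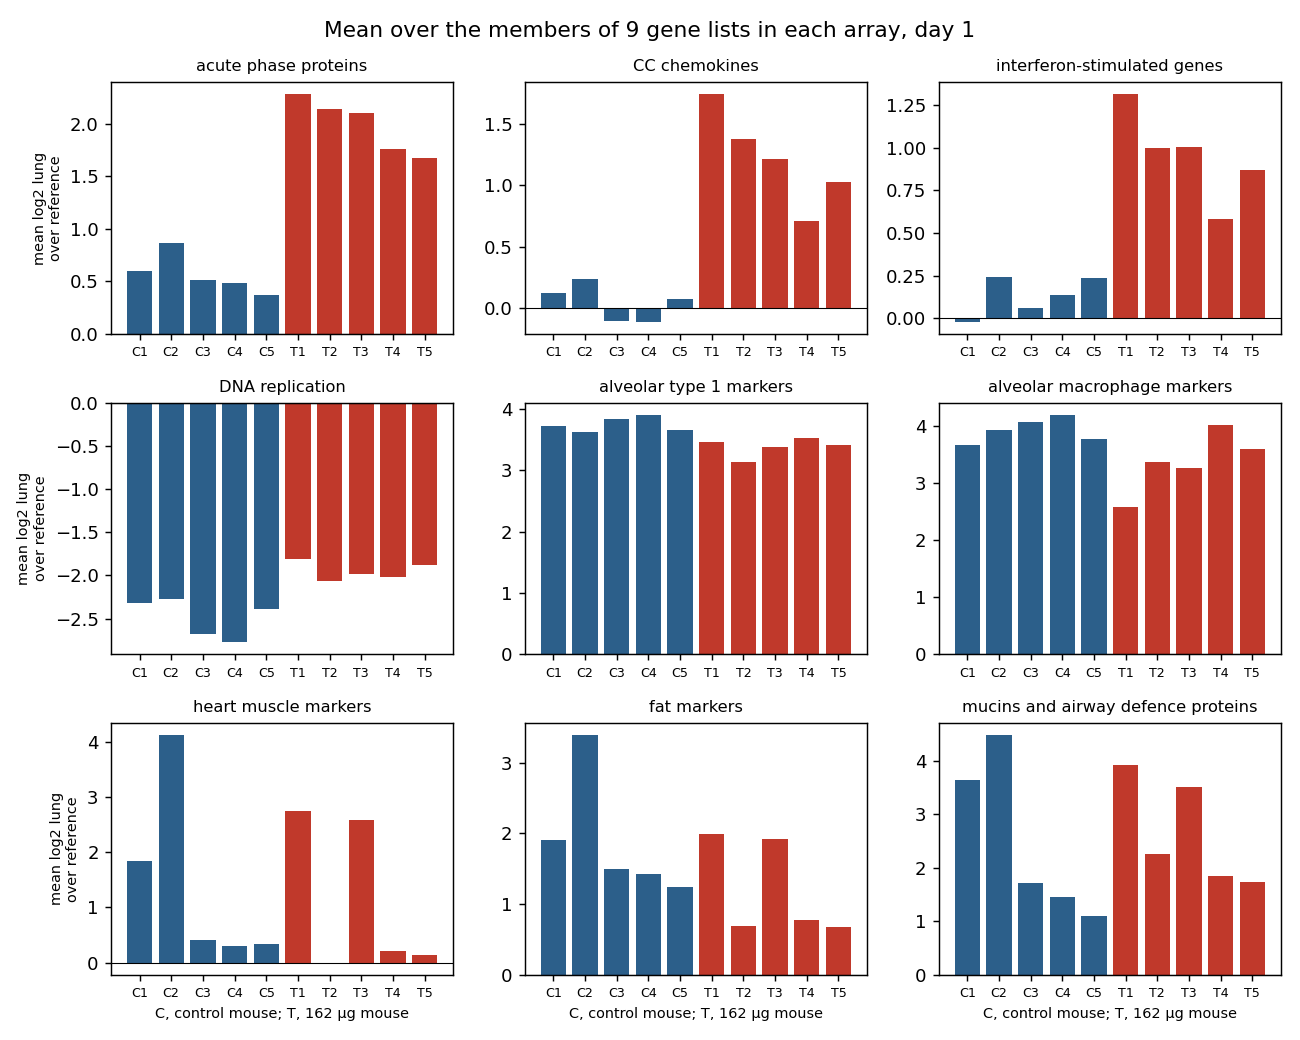
Mean log2 level over the members of 9 gene lists in each of the 10 arrays, with controls C1 to C5 in blue and exposed mice T1 to T5 in red. The acute phase means are 1.68 to 2.28 in the exposed mice and 0.37 to 0.86 in the controls, whereas heart muscle markers are high in C1, C2, T1 and T3.

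Clock genes differed in a way that set control mouse 3 apart. Dbp, a transcription factor driven by the clock, rose by 1.79 ± 0.39 and Bhlhe40 by 0.82 ± 0.15, while Arntl, which encodes the activator BMAL1, fell by 1.51 ± 0.32 (adjusted p = 0.0211, 0.00779 and 0.0184). Dbp stood at 1.46, 1.38, 2.21, 2.11 and 1.95 in the exposed mice and at -0.55, -0.69, 2.26, -0.60 and -0.25 in the controls. Arntl stood at -1.49, -0.95, -1.47, -1.84 and -1.28 against 0.36, 0.47, -1.70, 0.82 and 0.56. Control mouse 3 lay at the level of the exposed mice for both, and also for Per1 (1.49) and Nr1d2 (2.01). Without it, 7 of 19 clock genes were called in place of 3: Dbp (2.34), Per1 (1.75), Nr1d2 (1.26), Hlf (0.96), Bhlhe40 (0.88) and Per2 (0.86) were higher and Arntl was lower (-1.96). Control mouse 3 was left out because of its clock gene values, so this count and these differences follow in part from that choice and are a description. Over the 14 glucocorticoid and fasting responsive genes, which include Per1, control mouse 3 had a mean of 1.165. The other controls had means of 0.37 to 0.60 and the exposed mice of 0.66 to 1.06. The part of control mouse 3 in the absence of calls on that list was not tested. Dbp differed from control by 1.77 at 18 µg and 1.62 at 54 µg, doses at which Saa3 differed by 0.72 and 5.28. The hour at which lungs were taken is not given in the sources used here, and its part in these values was not tested.

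At 54 µg, the next lower dose, changes were smaller for the named genes. Between 162 and 54 µg, 0 of 18739 genes were called by limma (0%), with 1007 at an unadjusted p under 0.05. All 30 of the genes named for the largest changes had a mean further from control at 162 µg than at 54 µg. The 234 higher genes had a median difference from control of 0.70 at 162 µg, 0.38 at 54 µg and 0.14 at 18 µg, and the 92 lower genes of -0.63, -0.43 and -0.23. These genes were chosen by their values at 162 µg and all doses share the controls, so the order of the medians is a description. Saa3 at 54 µg stood at 1.69, 2.83, 4.22, -0.39 and 4.98, a wider spread than at 162 µg, and the difference between the doses was 2.03 (95% interval 0.32 to 3.74). At 18 µg it stood at -1.07, -4.17, 0.38, -2.56 and -2.06, on both sides of the controls. Interferon-stimulated genes had a median difference from control of 0.22 at 54 µg against 0.74 at 162 µg, and DNA replication genes of 0.16 against 0.51. The acute phase list had 0.52 against 0.51, although its members with the largest changes differed less from control at 54 µg. Saa1, Orm2, Saa2, Lcn2 and Orm1 differed by 3.16, 2.61, 2.85, 2.43 and 1.48 at 54 µg. At 162 µg they differed by 4.78, 3.76, 3.57, 3.07 and 2.82. Whether the lists differed in their change between doses was not tested. The difference between doses was 1.25 (0.57 to 1.93) for Isg15 and 1.12 (0.57 to 1.66) for Zbp1, neither called (adjusted p = 0.447 and 0.305).

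**Figure D5:**
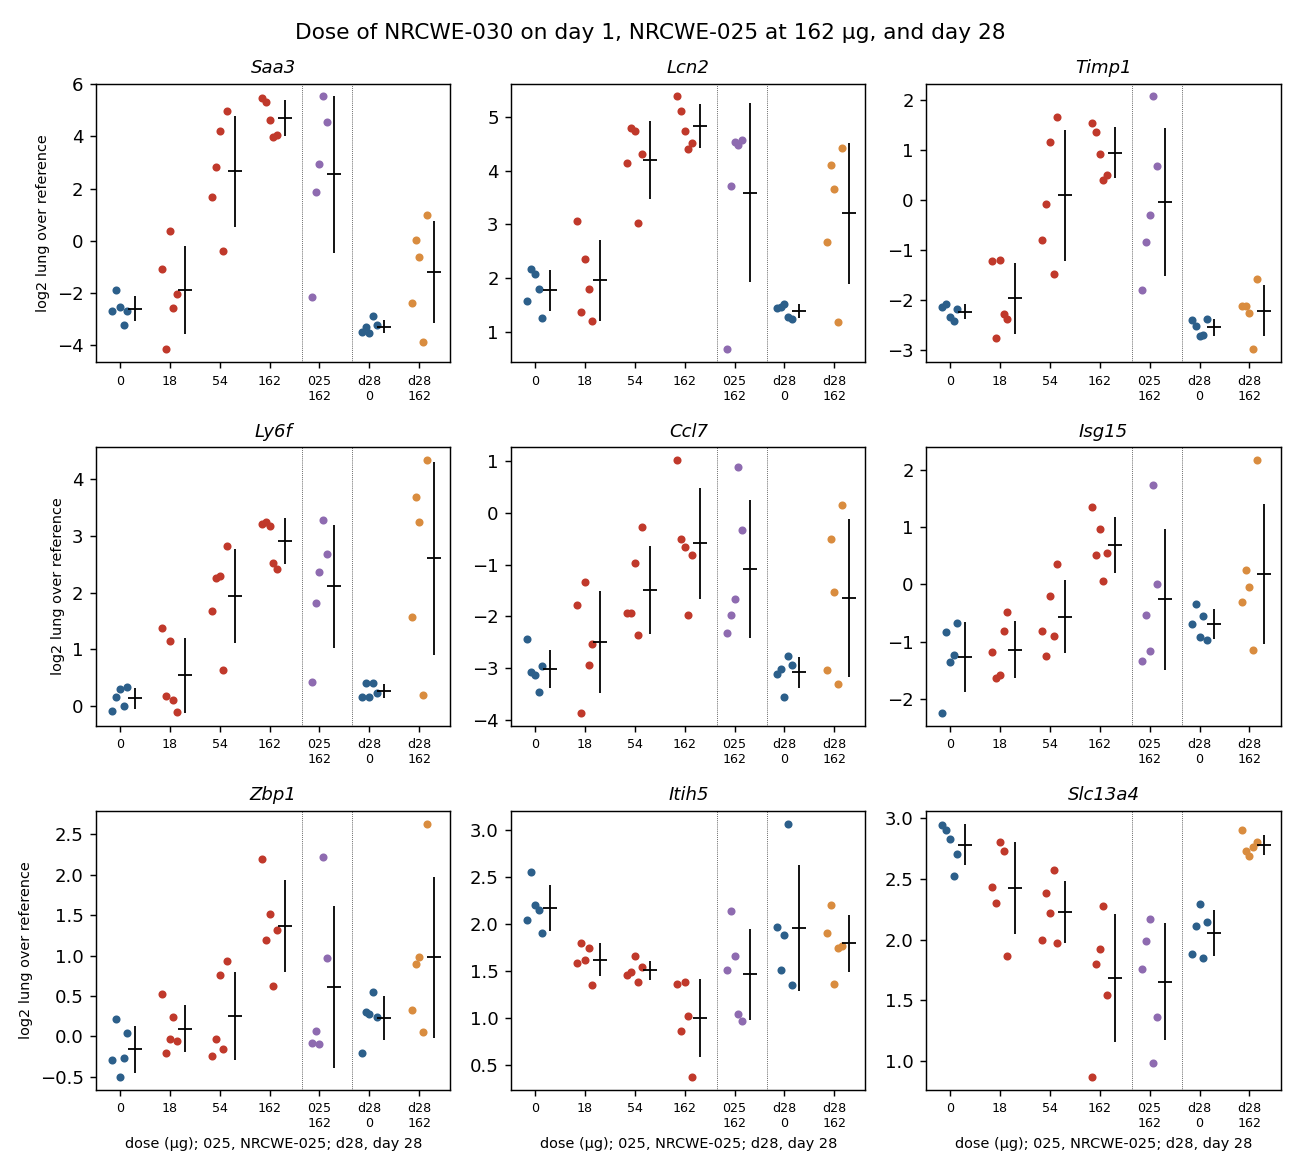
Levels of 9 genes in each mouse as log2 lung over reference, with the mean and SD beside the points. From left to right stand control and 18, 54 and 162 µg of NRCWE-030 on day 1, 162 µg of NRCWE-025 on day 1, and control and 162 µg of NRCWE-030 on day 28. Saa3 is highest at 162 µg of NRCWE-030 on day 1, and Ly6f differs from control by 2.32 on day 28, a difference that was not called.

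At the same dose and day, the 2 nano-TiO2 materials were compared directly. No gene of 18660 was called between them by limma (0%), with 1144 at an unadjusted p under 0.05. Of the 28 named genes with a value in this fit (Cxcl10 and Hcar2 lacked one on another array), 27 were further from control for NRCWE-030. These genes, like the 234 and 92 below, were chosen by their values for NRCWE-030 and both materials share the controls, so such counts and medians are a description. Saa3 in the mice given NRCWE-025 stood at -2.18, 1.88, 2.93, 5.54 and 4.56, and mouse 1 was at the level of the controls. This mouse was also within or below the controls for Saa1 (0.13), Orm1 (-0.20), Orm2 (-0.14) and Lcn2 (0.67). It was above every control for Timp1 (-1.81) and Ch25h (2.84). The differences between materials include this mouse, and its part in them was not tested. The difference between materials was 2.15 for Saa3 (95% interval 0.27 to 4.03), 1.32 for Orm1 (0.64 to 2.01) and 1.54 for Orm2 (0.58 to 2.50), and 0.03 for Slc13a4 (-0.31 to 0.37). The 234 higher genes of NRCWE-030 had a median difference from control of 0.41 for NRCWE-025, and the 92 lower genes of -0.43. None of these differences passed adjustment over all genes, which does not show that the materials act alike.

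The effect of 162 µg on day 1 was then set against that on day 28, each relative to the controls of its day. For 37 of 18660 genes the effects differed (0.198%), of which 25 had a higher (0.134%) and 12 a lower value on day 1 (0.0643%). The higher ones included the acute phase genes Saa1 (4.21, adjusted p = 0.00105), Saa2 (3.32), Orm2 (3.25) and Orm1 (2.76), whose effects on day 28 were 0.57, 0.25, 0.51 and 0.06. Timp1 (2.85), Il1r2 (1.59), Csf3r (1.55), Clec4d (1.60), Mmp3 (1.59), Mmp9 (1.46) and Adamts9 (1.04) were also among them, as was the replication gene Pcna (0.70). Slc13a4 and Dpep1, which fell on day 1 by 1.10 and 1.03, differed from control by 0.72 and 0.36 on day 28, and the difference of effects was called (-1.82 and -1.39). The controls themselves differed between days, with means of 2.78 and 2.06 for Slc13a4 and of 2.47 and 2.00 for Dpep1. The exposed means on day 28 were 2.78 and 2.36, so these differences of effects include the lower day 28 controls. Saa3 stood at -2.38, 0.02, -0.63, -3.90 and 0.99 on day 28, and the difference of its effects, 5.20 ± 1.33, was not called (adjusted p = 0.0795). The acute phase gene Lcn2 differed from control by 1.82 on day 28 and 3.07 on day 1. The difference of its effects was 1.24 ± 0.78 and was not called by limma (adjusted p = 0.755). Some other genes also had means above control on day 28. Ly6f differed from control by 2.32 on day 28 and 2.77 on day 1, and Ch25h by 1.47 and 1.72. Ccl12 differed by 1.41 and 1.76, and Cxcl9 by 1.11 and 0.99. None of these 4 differences between days was called, which does not show equal effects (0.44 ± 0.79 for Ly6f). On day 28, Ly6f, Ch25h and Ccl12 were not called by limma against control (adjusted p = 0.0597, 0.0527 and 0.11). Ly6f in exposed mouse 4 of that day (0.19) lay within the controls (0.16 to 0.41). This mouse was below every control of that day for Saa3 (-3.90), Timp1 (-3.00), Lcn2 (1.18), Cxcl10 (-1.46), Noxo1 (-0.44) and Acod1 (-4.72). It was above every one of these controls for Ch25h (2.59) and Ccl12 (1.01). The effects on day 28 include this mouse, and its part in them was not tested.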

How the data were processed

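Spot values were taken from the scanner files that the authors deposited. Per the file headers, these hold median signals and local backgrounds of each colour as a linear intensity, a log10 ratio of the scanner software (Agilent Feature Extraction 11.0.1.1), and other columns of flags. The deposited series matrix holds log2 ratios normalized by LOWESS. With limma 3.58.1 in R 4.3.3 (package data.table, version 1.17.8), the background was corrected by normexp (offset 50), with local backgrounds marked as outliers replaced by the array median. Loess followed within each array, and marked spots were left out. Spots of a probe, and then probes of a gene, were combined by the median. Symbols came from RefSeq (GRCm38.p6) for 27484 of 41174 probes (66.8%). The array was designed on an earlier assembly, so its positions were not used.

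Contrasts were tested by limma with Benjamini-Hochberg adjustment over all genes and called at an adjusted p under 0.05. The NRCWE-030 day 1 groups and controls (20 arrays) gave the comparisons of doses, and all 14 groups (69 arrays) those of materials and days. The fit was tested on simulated data. Named genes were the 20 largest increases and 10 largest decreases among called genes without overlap, and called members of 49 gene lists. Members, lists and sequence patterns were chosen with earlier results of these data known, so they are not independent evidence. Plots were drawn with matplotlib 3.10.9 in Python 3.11.15. The number of arrays limits the precision, and p-values measure the spread between mice of a group. Some results are not reported here.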

Additional observations from a re-analysis of the deposited data

Results flagged for a closer look

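Single mice stood apart from the rest of their group in 4 of the 30 named genes. Orm2 was 1.41 in control mouse 2, where the next control was 0.20, and Orm1 was 0.94 in the same mouse, where the next was 0.10. Control mouse 2 also had the highest heart muscle, fat and airway marker levels of the 10 mice. Nxph3 was 2.46 in control mouse 3, below the other controls (3.06 or more). Dpep1 was 0.85 in exposed mouse 1, against 1.52 or more in the other exposed mice, and 2.23 in control mouse 5, against 2.50 or more in the other controls. Chance alone gives such a gap in about 1 in 20 groups, and 60 groups were examined.

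For 8 of the named genes the effect of 162 µg on day 1 differed from that on day 28, tested as a difference of effects in limma. The effect on day 1 was higher by 4.21 for Saa1, 3.32 for Saa2, 3.25 for Orm2, 2.76 for Orm1 and 2.85 for Timp1. It was lower for Ogn (-1.50), Slc13a4 (-1.82) and Dpep1 (-1.39). Slc13a4 had the smallest adjusted p (4.06e-06), with changes against control of -1.10 on day 1 and 0.72 on day 28. Its control mean was 2.78 on day 1 and 2.06 on day 28.

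Probes with no gene symbol also differed: 54 of 13676 were called (0.395%), 26 of them higher, against 311 of 27447 probes with a symbol (1.13%).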

How the results depend on the processing

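Under every alternative, each of the 30 named genes kept its direction, and its change was 0.39 to 1.65 times the value given with the scanner log ratio and 0.67 to 1.32 times in all others. Calls were less stable. Scan day as a fixed block gave 49 called genes (33 higher, 16 lower; 36 of the 326), with 18 named genes no longer called, and slide as a fixed block gave 68 (35 higher, 33 lower; 45 of the 326), with 14 no longer called. Slide as a random block gave 516 (336 higher, 180 lower) and the scanner log ratio 534 (413 higher, 121 lower). Without the 4 arrays high in heart muscle markers, an alternative chosen after seeing the data, 14 were called and 22 named genes lost their call. Saa3, Saa1, Orm2, Saa2, Lcn2, Orm1, Itih5 and Asgr1 kept it. The count was 154 to 282 with 1 array left out, lowest without exposed mouse 2, and it was also low without control mouse 2 (184), exposed mouse 1 (204), control mouse 4 (204) and exposed mouse 5 (213). The split between higher and lower genes was 250 to 58 without background correction and 238 to 55 with the series matrix values, against 234 to 92. The other settings gave 293 to 465 genes.

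Between 162 and 54 µg, 0 genes were called without replacement of marked backgrounds, with the series matrix values, with scan day as a fixed block and with slide as a random one, and 0 to 0 with 1 exposed array left out. Between materials the count was 0 to 0 with 1 exposed array left out, and 1 without replacement of marked backgrounds. Between days it was 18 without that replacement, 66 with slide as a random block and 21 to 48 with 1 array left out (22 without exposed mouse 1, 21 without exposed mouse 2), against 37. The cause of these shifts was not tested. No paired analysis was possible because the labels give the groups no shared replicate numbers.

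Dim genes limit what can be said: Il6 and Cxcl3 were not well above background on any control array, and their changes are lower bounds.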

Other observations

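The called genes outside the gene lists that are named here were picked after their values were seen, and no enrichment was tested. Mlkl and Ripk3, which carry out necroptosis, rose by 0.86 and 0.70, and Zbp1 belongs to the same pathway. Noxa1, the partner of Noxo1 in its NADPH oxidase complex, rose by 0.82, and Vnn1, a second pantetheinase beside Vnn3, by 1.03. Bst2 (1.05), Eif2ak2 (0.94), Ifitm3 (0.87), Sting1 (0.80) and Dhx58 (0.76) also rose, as did the immunoproteasome subunit Psmb8 (0.74) and the proteasome activator Psme1 (0.48). Lgals1 (1.13), S100a4 (0.97) and the cathepsin Ctsc (0.91) rose in addition. In the other direction, Gstm3, a glutathione transferase with close paralogs, fell by 1.02 and Pon3, a paralog of Pon1, by 0.40. Abra (-0.96), Myom3 (-0.91) and Fhl1 (-0.88), genes of striated muscle, were also lower, in a set of arrays where heart muscle markers were high in exposed mice 1 and 3 and control mice 1 and 2, and the part of that tissue in these values was not tested. Of the 326 called genes, 220 lay in none of the lists and were not among the 30 named.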
